A study of Mus musculus with 8 samples.

Results

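The regions described here are 2036 myogenin ChIP-seq intervals that were called only after bexarotene, lie away from promoters and carry no called p300 interval. They were chosen by 3 criteria applied to the deposited peak positions. An interval of the bexarotene myogenin list was kept when it shared no base with any interval of the control myogenin list, when its centre was over 1 kb from every transcription start site (TSS) of a protein-coding transcript, and when it shared no base with any interval of the control or the bexarotene p300 list. Of the 6642 intervals in the bexarotene myogenin list, 3645 had no overlapping control interval (54.9%), 3082 of these were distal, and 2036 of the distal ones had no overlapping p300 interval and are called members below. Among the 3317 distal bexarotene intervals without p300, members made up 61.4%. These counts follow from the selection and are given as a description only.

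The cells were C2C12, a mouse myoblast line of strain C3H, differentiated for 24 h in low serum without an agent (Ctl) or with 50 nM bexarotene (Bex). Chromatin was immunoprecipitated with an antibody against myogenin or against p300, and each factor and condition is represented by 1 library. There is thus no replicate, an interval found in 1 list only is a difference between 2 libraries, and no test between conditions was made. Percentages carry 95% Wilson intervals and differences between percentages carry 95% Newcombe intervals, both of which cover counting error over intervals and not the variation between cultures.

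Myogenin is a basic helix-loop-helix transcription factor that drives terminal differentiation of skeletal myoblasts and binds, as a heterodimer with E proteins, to the short DNA element called the E-box. Bexarotene is a selective agonist of the retinoid X receptors, nuclear receptors that bind paired half-sites as homodimers or as partners of other receptors. The coactivator p300 is a histone acetyltransferase that is recruited by many transcription factors to enhancers and promoters, and its called intervals are widely used to mark active regulatory DNA.

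The E-boxes counted here were CAGCTG and CACCTG on either strand, so that CACCTG includes its reverse complement CAGGTG. Members differed widely in how many they held, and 7 of the 8 members with most E-boxes within 100 bp of the centre are shown here for the upper end of that range. In each line below the whole interval is given 5′ to 3′ on the plus strand of mm9, with every E-box in capitals.

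Upstream of Cck (chr9:121450738-121450905): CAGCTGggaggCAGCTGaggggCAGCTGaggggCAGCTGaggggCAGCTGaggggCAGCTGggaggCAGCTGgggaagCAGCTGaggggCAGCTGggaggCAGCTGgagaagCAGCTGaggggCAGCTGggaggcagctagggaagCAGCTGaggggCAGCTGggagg
Intron of Itpr2 (chr6:146388483-146388650): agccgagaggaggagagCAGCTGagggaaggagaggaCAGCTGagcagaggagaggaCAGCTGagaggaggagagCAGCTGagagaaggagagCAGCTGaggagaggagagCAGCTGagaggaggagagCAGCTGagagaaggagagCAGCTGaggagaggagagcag
Intron of Lemd3 (chr10:120394650-120394817): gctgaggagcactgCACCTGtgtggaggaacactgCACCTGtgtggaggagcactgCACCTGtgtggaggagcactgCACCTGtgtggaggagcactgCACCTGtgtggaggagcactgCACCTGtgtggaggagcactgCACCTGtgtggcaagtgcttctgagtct
Intron of Zfp248 (chr6:118381691-118381858): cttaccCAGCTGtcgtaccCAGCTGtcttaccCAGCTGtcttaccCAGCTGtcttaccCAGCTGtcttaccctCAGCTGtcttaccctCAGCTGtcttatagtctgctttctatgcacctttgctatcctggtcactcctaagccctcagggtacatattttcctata
Upstream of Ehbp1 (chr11:22272692-22272859): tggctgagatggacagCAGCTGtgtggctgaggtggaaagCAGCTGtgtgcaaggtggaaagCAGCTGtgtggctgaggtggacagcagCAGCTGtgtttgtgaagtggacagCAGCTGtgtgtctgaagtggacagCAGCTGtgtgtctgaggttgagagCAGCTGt
Upstream of Sh2d4a (chr8:70710442-70710609): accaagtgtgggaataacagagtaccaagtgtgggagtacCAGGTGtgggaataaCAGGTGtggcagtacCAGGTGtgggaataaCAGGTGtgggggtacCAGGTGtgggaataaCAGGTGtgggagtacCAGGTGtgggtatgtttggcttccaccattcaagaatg
Intron of Slc24a4 (chr12:103462465-103462632): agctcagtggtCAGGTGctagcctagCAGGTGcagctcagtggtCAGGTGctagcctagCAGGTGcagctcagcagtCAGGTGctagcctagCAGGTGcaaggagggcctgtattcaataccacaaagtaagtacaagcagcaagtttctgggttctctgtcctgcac

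The interval upstream of Cck, the cholecystokinin gene, was intergenic, at -46015 bp from the nearest TSS. It held 16 CAGCTG sites within 100 bp of its centre, 14 of them inside the interval, and 12 successive pairs began 11 bp apart. Its nearest control myogenin interval was 194563 bp away. The interval in intron 2 of Itpr2, an inositol trisphosphate receptor of the endoplasmic reticulum, held 8 CAGCTG sites, with 9 within 100 bp of the centre, and 6 successive pairs began 18 bp apart. In intron 1 of Lemd3, which codes for an inner nuclear membrane protein, 7 CACCTG sites lay inside the interval and 2 CAGCTG sites within 100 bp of its centre, with a step of 21 bp in 6 pairs. The 8 CAGCTG sites around the interval in intron 5 of Zfp248 had a step of 13 bp in 5 pairs. The interval upstream of Sh2d4a held 7 CACCTG sites and no CAGCTG, again at a regular step, here 15 bp in 6 pairs. The 8 CAGCTG sites around the interval upstream of Ehbp1 had a step of 24 bp in 5 pairs. The interval in intron 7 of Slc24a4, a sodium, calcium and potassium exchanger gene, was less regular, with 6 CACCTG sites inside it, 7 within 100 bp of its centre and a step of 18 bp in 3 pairs.

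Most members were not of this kind. The next lines show the central 100 bases of members at genes of muscle structure, the neuromuscular junction, adhesion and transcription, again on the plus strand of mm9 with E-boxes in capitals. They are shown because the genes are named in the results below. The first 13 were picked for holding 1 to 3 E-boxes, as 820, 327 and 33 members did, in that order, within 50 bp of the centre, and the last 3, at the same genes, hold none, as was so for 842 members.

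Myom3, intron 5 (chr4:135321828-135321927): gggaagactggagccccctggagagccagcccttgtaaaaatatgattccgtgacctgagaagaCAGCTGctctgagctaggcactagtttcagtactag
Myom3, intron 7 (chr4:135328719-135328818): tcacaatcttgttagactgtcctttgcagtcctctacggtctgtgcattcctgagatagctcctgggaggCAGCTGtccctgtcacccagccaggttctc
Myom3, intron 9 (chr4:135330568-135330667): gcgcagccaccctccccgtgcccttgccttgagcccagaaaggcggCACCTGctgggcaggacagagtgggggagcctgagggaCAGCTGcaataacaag
Between Chrnd and Chrng, member 1 (chr1:89100545-89100644): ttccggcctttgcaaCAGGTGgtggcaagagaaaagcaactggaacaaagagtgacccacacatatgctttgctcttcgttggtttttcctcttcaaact
Between Chrnd and Chrng, member 2 (chr1:89101200-89101299): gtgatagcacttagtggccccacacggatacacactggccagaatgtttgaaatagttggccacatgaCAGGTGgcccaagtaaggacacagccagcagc
Colq, intron 1 (chr14:32378183-32378282): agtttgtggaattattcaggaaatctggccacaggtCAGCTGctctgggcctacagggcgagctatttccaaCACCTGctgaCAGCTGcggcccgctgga
Tnnt3, intron 1 (chr7:149686091-149686190): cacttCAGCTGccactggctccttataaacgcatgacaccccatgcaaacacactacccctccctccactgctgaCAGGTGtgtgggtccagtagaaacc
Lmna, member 3 (chr3:88300769-88300868): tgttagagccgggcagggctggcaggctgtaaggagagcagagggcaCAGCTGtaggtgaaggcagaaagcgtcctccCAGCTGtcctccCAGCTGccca
Lmna, member 5 (chr3:88305066-88305165): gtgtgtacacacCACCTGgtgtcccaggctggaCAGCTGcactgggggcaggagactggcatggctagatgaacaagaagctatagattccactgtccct
Plec, member 5 (chr15:76058263-76058362): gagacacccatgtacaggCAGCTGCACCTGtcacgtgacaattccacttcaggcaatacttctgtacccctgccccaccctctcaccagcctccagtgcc
Kirrel3, intron 2 (chr9:34393288-34393387): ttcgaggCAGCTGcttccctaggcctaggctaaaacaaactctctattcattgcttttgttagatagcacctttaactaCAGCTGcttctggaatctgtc
Kirrel3, intron 5 (chr9:34753119-34753218): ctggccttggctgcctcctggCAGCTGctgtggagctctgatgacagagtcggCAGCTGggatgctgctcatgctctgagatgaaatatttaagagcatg
Mef2d, upstream (chr3:87937738-87937837): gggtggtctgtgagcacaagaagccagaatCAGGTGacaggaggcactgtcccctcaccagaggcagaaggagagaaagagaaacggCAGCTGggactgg
Lmna, member 4 (chr3:88301711-88301810): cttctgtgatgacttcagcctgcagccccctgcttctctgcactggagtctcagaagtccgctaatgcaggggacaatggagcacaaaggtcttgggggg
Plec, member 4 (chr15:76049483-76049582): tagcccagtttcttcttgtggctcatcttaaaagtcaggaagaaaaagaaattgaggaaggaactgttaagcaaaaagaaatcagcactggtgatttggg
Kirrel3, intron 2, without E-box (chr9:34393994-34394093): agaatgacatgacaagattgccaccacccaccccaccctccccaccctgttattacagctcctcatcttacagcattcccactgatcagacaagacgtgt

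In member 5 of Plec the 2 E-boxes abut with no base between them. In member 3 of Lmna, counted along the chromosome, 3 CAGCTG sites lay within the central 100 bases, the last 2 of them in a repeated stretch of bases, and in the member of Colq 2 CAGCTG sites and 1 CACCTG site did. The Chrnd and Chrng members carried 1 CACCTG site each in this window and no CAGCTG.

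The lists behind these regions held 5912 control and 6642 bexarotene myogenin intervals and 22051 control and 9154 bexarotene p300 intervals. They give positions only, so the depth of each library and the height of each peak are unknown here, and the p300 lists differ in size by more than the myogenin lists do. The p300 criterion removed 1046 distal bexarotene-only intervals, of which 452 overlapped the control p300 list alone, 75 the bexarotene p300 list alone and 519 both. This set of 1046 is called the p300 class below and is the main comparison. Also compared were the 1281 distal intervals without p300 that were shared with the control and the 1205 distal intervals without p300 that were found only in the control list.

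At the limits of the selection the values were close. The member nearest to a TSS was 1002 bp away and the farthest interval left out was 999 bp away, with 24 members less than 100 bp beyond the limit and 36 intervals left out less than 100 bp short of it. The smallest gap between a member and a control myogenin interval was 0 bp, with no shared base. In all, 29 members were within 100 bp of such an interval, whereas the smallest overlap that put an interval in the shared class was 4 bp. The smallest gap between a member and a p300 interval was 2 bp, 66 members were within 100 bp of one, and 22 intervals of the p300 class overlapped p300 by 20 bp or less.

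Members were short. Of the 2036, 1492 had the smallest length in the list, 168 bp (73.3%, 71.3 to 75.2), and the longest was 724 bp. In the p300 class 57.8% had this length, and in the shared class 30.8%. The control-only class, whose list has a smallest length of 172 bp, reached 80.0%. The share at the smallest length was higher in members than in the p300 class by 15.4 points (11.9 to 19.0). Base composition was alike, with a median GC content over the central 200 bases of 50.0% in members, 49.5% in the p300 class, 51.0% in the shared class and 49.0% in the control-only class.

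An E-box lay within 50 bp of the centre in 1194 of the 2036 members (58.6%, 56.5 to 60.8). In windows of the same size 2 kb to either side that overlapped no interval of the 4 lists, the share was 11.7% of 3924, so E-boxes were found 5.00 times as often at the centres of members. Over all 6642 bexarotene myogenin intervals the share was 60.3%, which is close to the value in members, so the share by itself does not set them apart. It was 53.4% (50.4 to 56.5) in the p300 class, 75.7% (73.3 to 78.0) in the shared class and 34.8% (32.1 to 37.5) in the control-only class. Members differed from these by 5.20 points (1.51 to 8.90), -17.1 points (-20.2 to -13.9) and 23.9 points (20.4 to 27.3). The first of these had an interval that included 0 under several other settings. It was 1.19 points (-2.10 to 4.56) over the whole interval and 2.85 points (-0.430 to 6.21) within 100 bp of the centre. With CAGCTG alone it was 0.161 points (-3.55 to 3.86), and with any CANNTG it changed sign, at -0.778 points (-3.78 to 2.33). With only the bexarotene p300 list it was 3.31 points (-1.11 to 7.77). Within 10 kb of a TSS it was 2.10 points (-4.98 to 9.14), and farther away 8.61 points (4.25 to 13.0). The difference to the shared class varied with length. It was -18.1 points (-23.0 to -12.8) among intervals of the smallest length and -6.17 points (-10.9 to -1.53) among longer ones.

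**Figure D1:**
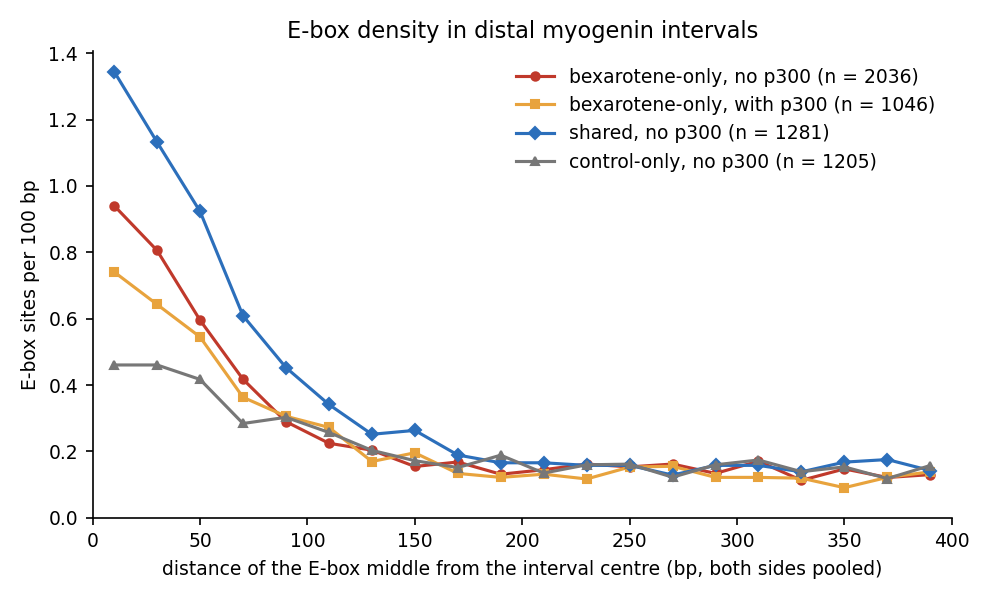
Density of E-box sites (CAGCTG or CACCTG on either strand, sites per 100 bp) against the distance from the interval centre in bp, both sides pooled in steps of 20 bp, for members and the 3 compared classes. In members the density was 0.941 sites per 100 bp within 20 bp of the centre and 0.131 at 180 to 200 bp.

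E-boxes were concentrated at the middle of the member intervals. Within 20 bp of the centre there were 0.941 E-box sites per 100 bp, which declined to 0.596 at 40 to 60 bp, 0.290 at 80 to 100 bp and 0.131 at 180 to 200 bp. In the p300 class the density within 20 bp was 0.741. The interval centre is not the summit of the reads, which the deposited lists do not give, so the true distance to the summit was not measured.

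The 2 cores behaved differently between members and the p300 class. CAGCTG was found within 50 bp in 922 members (45.3%, 43.1 to 47.5) and in 45.1% (42.1 to 48.2) of the p300 class, a difference of 0.161 points (-3.55 to 3.86). CACCTG was found in 439 members (21.6%, 19.8 to 23.4) and in 11.7% (9.86 to 13.7) of the p300 class, a difference of 9.90 points (7.19 to 12.5). In flanking windows the shares were 4.84% for CAGCTG and 7.44% for CACCTG around members, and 4.92% and 7.30% around the p300 class. CACCTG was thus 2.90 times as frequent at members as in their flanks, against 1.60 times in the p300 class. Over all 6642 bexarotene myogenin intervals, 48.6% held CAGCTG and 19.6% held CACCTG. For CACCTG the p300 class departed from this share more than members did. Shared intervals held CACCTG more often still, at 29.3%, and members differed from them by -7.71 points (-10.8 to -4.67). Among longer intervals that difference was -4.05 points, with an interval that included 0 (-8.76 to 0.820). The control-only class, also without p300, was near the p300 class, at 13.9% and 1.71 times its flanks. Members differed from it by 7.62 points (4.92 to 10.2).

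The CACCTG difference between members and the p300 class was present in each subset that was compared. Among intervals of the smallest length the shares were 19.7% in members and 11.4% in the p300 class, a difference of 8.30 points (4.91 to 11.4), and among longer intervals they were 145 of 544 and 53 of 441, a difference of 14.6 points (9.75 to 19.4). Within 10 kb of a TSS the difference was 9.67 points (4.61 to 13.9), and farther away it was 10.6 points (7.24 to 13.7). The difference for CAGCTG had an interval that included 0 in all 4 of these subsets. These subsets were chosen after the differences were seen. Of the members, 755 held CAGCTG alone, 272 held CACCTG alone and 167 held both within 50 bp (8.20%), whereas both cores were held by 3.35% of the p300 class and 15.0% of the shared class.

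Other central dinucleotides of the general element CANNTG were enriched less. CAACTG was found within 50 bp in 11.5% of members and 4.51% of flanking windows, CAGATG in 13.8% and 7.44%, and CAAATG in 10.9% and 6.57%. CACGTG, the element favoured by Myc family factors, was found in 1.67% of members and 1.33% of flanks. Any CANNTG was held by 78.1% of members and 1568 of the 3924 flanking windows, and the shares in members and the p300 class differed by -0.778 points (-3.78 to 2.33).

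**Figure D2:**
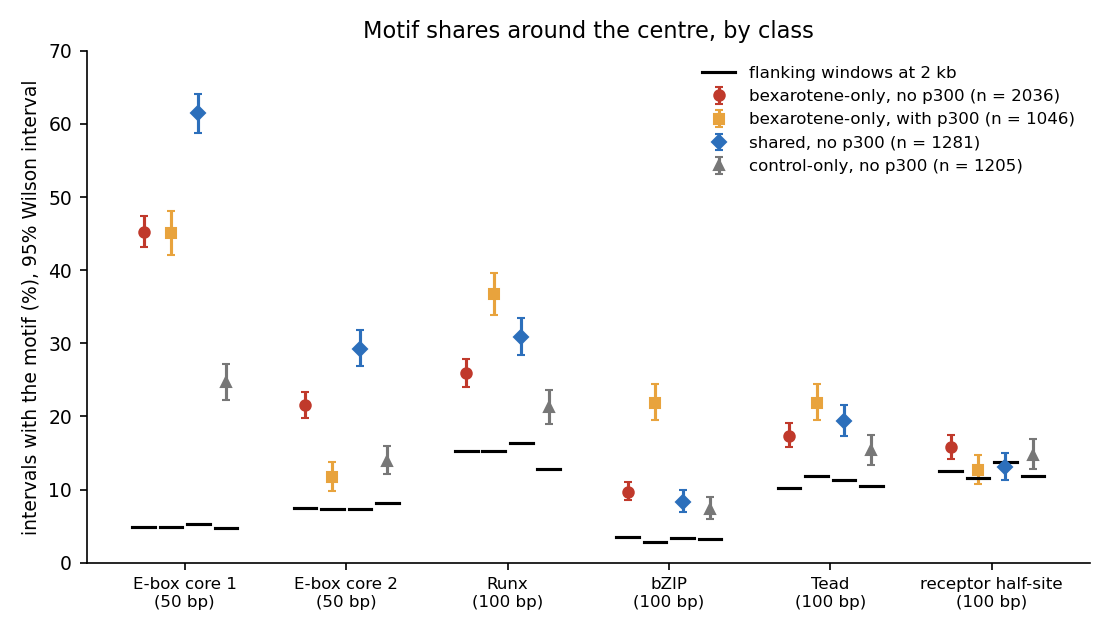
Percentage of intervals with each motif within 50 or 100 bp of the centre, as given under each label, with 95% Wilson intervals, for members and the 3 compared classes. Core 1 is CAGCTG and core 2 is CACCTG, and the black bars give flanking windows. Members and the p300 class stand together for core 1 (45.3% and 45.1%) and apart for core 2 (21.6% and 11.7%), Runx (25.9% and 36.7%) and bZIP (9.72% and 21.9%).

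Motifs of 3 other factor families were compared between members and the p300 class. The bZIP element TGACTCA or TGAGTCA, bound by AP-1 dimers of Jun and Fos proteins, lay within 100 bp of the centre in 198 members (9.72%, 8.51 to 11.1) and in 229 intervals of the p300 class (21.9%, 19.5 to 24.5), a difference of -12.2 points (-15.0 to -9.41). Around members 3.47% of flanking windows held it, and around the p300 class 2.85%. The Runx element TGTGGT lay within 100 bp in 25.9% of members (24.1 to 27.9) and 36.7% of the p300 class (33.8 to 39.7), a difference of -10.8 points (-14.3 to -7.31), with 15.2% and 15.3% in flanks. The Tead element GGAATG, bound by the partners of Yap and Taz, was found in 17.4% and 21.9%, a difference of -4.51 points (-7.56 to -1.56). For Tead this did not hold within 10 kb of a TSS, where it was 0.612 points (-5.02 to 5.53), nor among longer intervals, where it was -4.22 points (-9.23 to 0.702). Over all bexarotene myogenin intervals the shares were 12.6% for bZIP, 29.6% for Runx and 19.1% for Tead. Each lay between members and the p300 class and nearer to members.

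Members with and without an E-box within 50 bp held these elements at similar shares, 10.1% and 9.26% for bZIP and 27.1% and 24.2% for Runx. In the p300 class the corresponding values were 21.3% and 22.6% for bZIP and 34.5% and 39.2% for Runx. The differences between members and the p300 class also held among intervals of the smallest length, where they were -14.3 points (-18.1 to -10.7) for bZIP and -12.4 points (-16.9 to -8.01) for Runx. For bZIP the other classes without p300 were also low, the shared class at 8.35% and the control-only class at 7.39%, from which members differed by 1.37 points (-0.669 to 3.32) and 2.34 points (0.319 to 4.25). The difference to the control-only class was -1.19 points (-6.45 to 3.37) among longer intervals and 0.0575 points (-3.02 to 2.87) over 10 kb from a TSS. At the smallest length it was 3.09 points (0.903 to 5.18), and within 10 kb 4.36 points (1.68 to 6.98). For Runx the shared class was at 30.9%, between members and the p300 class, and the control-only class at 21.2%, with differences of -4.98 points (-8.16 to -1.83) and 4.69 points (1.65 to 7.64). To the shared class the interval included 0 at the smallest length (-3.30 points), among longer intervals (-3.12) and over 10 kb from a TSS (-2.32). Within 10 kb it did not (-9.31). To the control-only class it included 0 at the smallest length (3.22) and over 10 kb (2.13). Among longer intervals (9.13) and within 10 kb (5.71) it did not.

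The motif TGACAG, bound by Meis homeodomain factors, was found within 100 bp in 25.3% of members and 12.9% of flanks, but it overlaps the E-box in the string TGACAGCTG. Counted only where it shared no base with an E-box, it was found in 16.6% of members and 467 of 3890 flanking windows. The nuclear receptor half-site AGGTCA was found in 15.8% of members (14.2 to 17.4), 12.6% of the p300 class and 12.5% of the flanks of members. In the control-only class it was found in 14.8%, with 11.8% in flanks, and members differed from that class by 0.994 points (-1.61 to 3.50). In the shared class it was found in 13.1%, with 13.7% in flanks. Members differed from the p300 class by 3.15 points (0.515 to 5.64) and from the shared class by 2.65 points (0.173 to 5.05). The direct repeat with a spacing of 1 base (DR1) at which retinoid X receptor dimers can bind was found in 1 member (0.0491%), against 0.231% of flanking windows, so its letters were not more frequent at members than around them. MEF2 elements were found in 19 members (0.933%) and 0.437% of flanks, the GC box GGGCGG bound by Sp1 in 5.01% and 4.47%, the SRF CArG box in 0.933% and 0.977%, and the CTCF core in 0.442% and 0.874%.

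The member with a DR1 lay in intron 1 of Vsnl1, a neuronal calcium sensor gene, 43947 bp from its TSS. It is shown because it was the only one, over 200 bases on the plus strand of mm9 and with the DR1 rather than the E-boxes in capitals.

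Vsnl1, intron 1 (chr12:11399408-11399607): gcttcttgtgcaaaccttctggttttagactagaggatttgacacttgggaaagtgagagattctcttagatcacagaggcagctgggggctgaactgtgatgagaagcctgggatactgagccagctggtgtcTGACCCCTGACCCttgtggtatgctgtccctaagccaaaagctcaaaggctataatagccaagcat

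This member also held 2 CAGCTG sites within 50 bp of its centre, and its nearest p300 intervals were 737 bp away in the control list and 775 bp away in the bexarotene list. The nearest control myogenin interval was 815350 bp away.

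The bases next to the E-box were compared with those next to E-boxes in flanking windows. Of 467 CACCTG sites within 50 bp of the centres of members, 74.3% (70.2 to 78.1) were followed on the CTG side by 2 pyrimidines, against 33.1% (28.0 to 38.6) of 299 sites in flanks. On the CAC side, read on the other strand, the share was 32.5%, against 23.1% in flanks. T followed CTG directly at 53.3% of member sites and 24.4% of flank sites, whereas C did so at 32.3% and 30.8%. For the palindrome CAGCTG, 82.7% (80.4 to 84.8) of 1122 sites in members had 2 pyrimidines on at least 1 side, against 49.5% of 194 sites in flanks, and 22.2% had them on both sides, against 7.22%. In the p300 class the pyrimidine pair was found after 63.9% (54.9 to 71.9) of 119 CACCTG sites and in the shared class after 81.4% (77.4 to 84.8) of 419. In the control-only class it was found after 62.0% (54.7 to 68.8) of 179. For CAGCTG the share with a pair on at least 1 side was 78.4% in the p300 class, 84.0% in the shared class and 80.6% in the control-only class. The preference at CAGCTG was thus common to all the classes and not particular to members.

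Members more often held several E-boxes than the p300 class did. Within 50 bp of the centre, 842 members had none, 820 had 1, 327 had 2 and 47 had 3 or more. At least 2 were found in 18.4% of all members and 10.6% of the p300 class, a difference of 7.76 points (5.17 to 10.2). Among intervals with at least 1, a second was present in 31.3% (28.8 to 34.0) of members and 19.9% (16.8 to 23.4) of the p300 class. In the shared class these shares were 30.6% and 40.4%, and in the control-only class 8.46% and 24.3%, so members lay between the other classes without p300. Of the 842 members with none, 322 had an E-box within 100 bp (38.2%, 35.0 to 41.6) and 396 held some other CANNTG within 50 bp. Widening the window to 100 bp gave 33.5% and 25.1% with at least 2 E-boxes, and 56.3% in the shared class.

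Arrays of 5 or more E-boxes within 100 bp were found in 14 members (0.688%, 0.410 to 1.15), in 1 interval of the p300 class, in 25 shared intervals (1.95%, 1.33 to 2.87) and in 6 control-only intervals. Of the flanking windows around members, 2 of 3890 held such an array. Of the 14 member arrays, the 9 with 6 or more E-boxes had 3 or more pairs at a common step, and the 5 with exactly 5 E-boxes had no step that recurred. The interval in Slc24a4 was the only one of the 8 intervals with most E-boxes that had a control myogenin interval within 1 kb, at 538 bp. Short reads can align to several copies of a tandem repeat, and the mappability of these intervals was not tested.

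**Figure D3:**
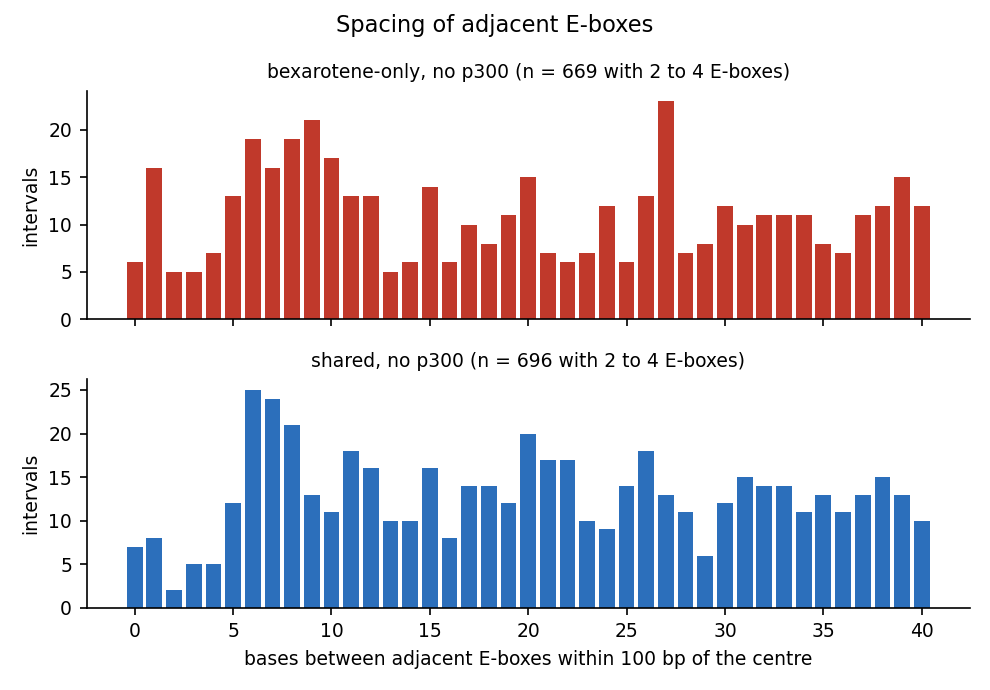
Number of intervals with at least 1 pair of adjacent E-boxes at each spacing, from 0 to 40 bases between the elements, among members (top) and shared intervals without p300 (bottom) that held 2 to 4 E-boxes within 100 bp of the centre. In members the bars at 5 to 10 bases lie between 13 and 21 intervals, and the bar at 27 bases is the highest at 23.

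Among the 669 members with 2 to 4 E-boxes within 100 bp, adjacent sites at 5 to 10 bases of spacing were found in a mean of 17.5 members per spacing, against 7.80 at 0 to 4 bases and 10.1 at 11 to 30 bases. In shared intervals the corresponding means were 17.7, 5.40 and 13.3, and in the control-only class, with 208 such intervals, 6.17, 1.40 and 3.25. In the p300 class, with 262, they were nearly level at 4.17, 3.40 and 3.85. A spacing of 1 base was found in 16 members, more than the 5 to 7 members at each of the other spacings under 5 bases, and a spacing of 27 bases in 23. These single spacings were picked after the counts were seen, rest on few intervals and have no test.

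Within the members the E-box share varied with length and position. Members longer than the smallest length held an E-box within 50 bp in 71.1% of 544 cases and those of the smallest length in 54.1% of 1492, a difference of 17.1 points (12.4 to 21.5). Members over 10 kb from a TSS held one in 63.7% and those within 10 kb in 50.5%, a difference of 13.1 points (8.71 to 17.5). Members inside and outside protein-coding genes differed by 0.638 points (-3.65 to 4.93).

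Proximity to p300 or to control myogenin, short of overlap, went with fewer E-boxes. Of the 301 members with a p300 interval of either list within 1 kb, 38.2% (32.9 to 43.8) held an E-box, whereas of the 1112 with none within 10 kb, 64.8% (62.0 to 67.6) did. The difference was 26.6 points (20.3 to 32.6), and it comprised both CAGCTG, at 28.2% and 50.4%, and CACCTG, at 13.0% and 24.6%. Of the 168 members with a control myogenin interval within 1 kb, 41.1% (33.9 to 48.6) held an E-box, against 62.8% (60.2 to 65.3) of the 1400 with none within 10 kb. In each of these subsets the share remained above the 11.7% of flanking windows. The share also varied with TSS distance, as given above. The proximity splits were not repeated within ranges of TSS distance, so a part of proximity apart from it was not tested.

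**Figure D4:**
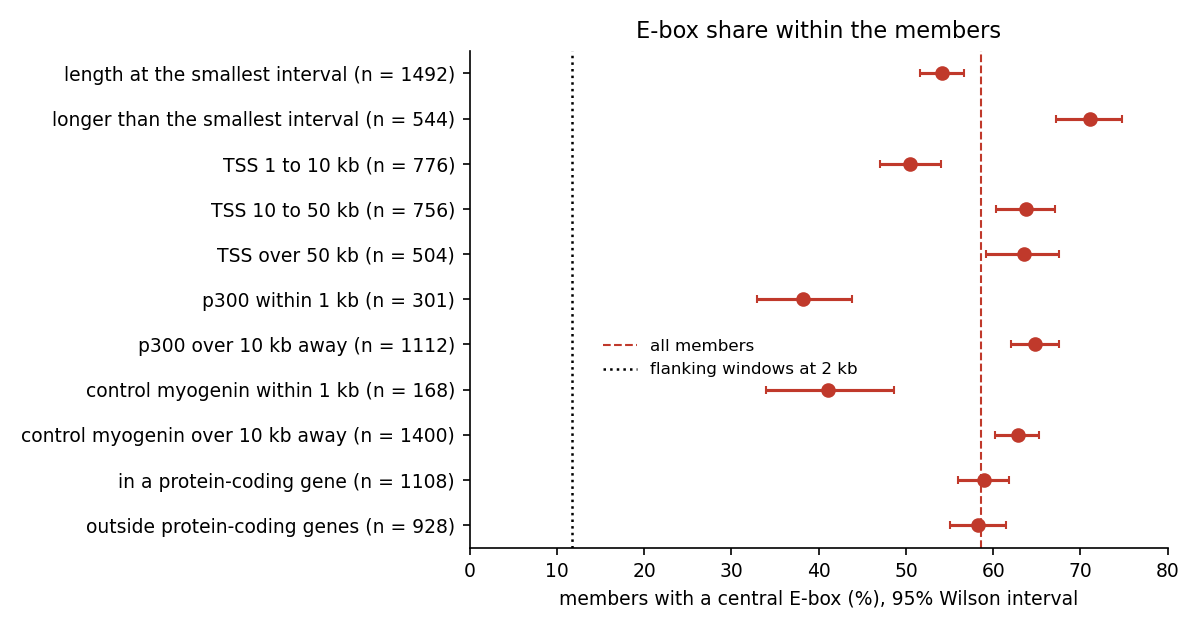
Percentage of members with an E-box within 50 bp of the centre, with 95% Wilson intervals, for members split by length, by distance to the nearest TSS, p300 interval or control myogenin interval, and by gene overlap. Members within 1 kb of p300 (38.2%) or of control myogenin (41.1%) lie below the value over all members (58.6%, dashed line) and above the flanking windows (11.7%, dotted line).

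Members lay at a median of 17432 bp from the nearest protein-coding TSS, with quartiles of 5695 and 49415 bp, nearer than the p300 class, whose median was 29656 bp. Between 1 and 10 kb there were 776 members (38.1%, 36.0 to 40.2), against 24.1% of the p300 class, a difference of 14.0 points (10.6 to 17.3). Over 50 kb there were 504 members (24.8%, 22.9 to 26.7), against 34.3%, a difference of -9.57 points (-13.0 to -6.16). The control-only class lay closer than members, with a median of 10580 bp and 49.5% at 1 to 10 kb. The shared class was nearer to members than the p300 class was, with a median of 19967 bp. It had 31.8% at 1 to 10 kb and 27.9% over 50 kb, from which members differed by 6.34 points (3.01 to 9.62) and -3.11 points (-6.23 to -0.0510).

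Inside a protein-coding gene were 1108 members (54.4%, 52.3 to 56.6), 1021 of them outside the exons of its coding transcripts and 87 within an exon (4.27%). The share inside a gene differed from the p300 class by 1.84 points (-1.87 to 5.56), from the shared class by -0.224 points (-3.69 to 3.26) and from the control-only class by 1.89 points (-1.66 to 5.44). In exons the differences in the same order were 1.98 points (0.623 to 3.20), 0.838 points (-0.556 to 2.14) and -1.45 points (-3.11 to 0.0706), and the first was 0.492 points (-0.905 to 1.73) over 10 kb from a TSS.

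Although no member overlapped p300, 14.8% of them (13.3 to 16.4) had a p300 interval of either list within 1 kb and 45.4% (43.2 to 47.6) within 10 kb. The control p300 list was within 1 kb of 275 members and the bexarotene p300 list within 1 kb of 132, and the control list is the larger of the 2. Shared intervals had p300 within 1 kb in 9.37% and control-only intervals in 23.1%, so that members differed from them by 5.42 points (3.15 to 7.60) and -8.29 points (-11.2 to -5.49).

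Another myogenin region lay within 10 kb of 827 members (40.6%, 38.5 to 42.8). For 378 members (18.6%) it was, or included, a shared region, for 358 (17.6%) one found only in the control list and for 284 (13.9%) another member. In the p300 class the share with any other myogenin region was 37.4% (34.5 to 40.4), in the shared class 41.5% (38.8 to 44.2) and in the control-only class 51.6% (48.8 to 54.4).

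The longest members lay in introns. The member of 724 bp was in intron 1 of Lpar1, a lysophosphatidic acid receptor gene, 1552 bp downstream of a TSS, and held 3 E-boxes but none within 50 bp of its centre. The next, of 711 bp, was in intron 1 of Ehd4, an endocytic membrane protein gene, with a control p300 interval 624 bp away. The others were in Gpt2 (635 bp), which codes for an alanine aminotransferase, Prrc2b (568 bp), Zfp385c (508 bp) and Cd82 (501 bp), a tetraspanin gene. All 6 held 2 to 4 E-boxes over their whole length, and only the one in Gpt2 held an E-box within 50 bp of the centre. Over all 187 members longer than 250 bp, 130 held one there (69.5%, 62.6 to 75.7).

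Of 22380 protein-coding genes, 1613 had a member in the gene body or within 10 kb (7.21%), 235 had at least 2 and 59 at least 3. Another 554 members had no protein-coding gene within 10 kb. For 686 of the 1613 genes (42.5%) the members were the only myogenin intervals of either list in that range, whereas 849 also had a control interval. Genes with a member had a median length of 33.7 kb, against 15.4 kb over all protein-coding genes, so long genes are counted more readily. No expression was measured in the lists, so a gene near a member is named by position only.

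Lmna, which codes for lamins A and C of the nuclear lamina, had 6 members, all in intron 1 of its longest transcript, with centres from 88292466 to 88306055 on chromosome 3, where 7 bexarotene and 1 control myogenin intervals were found. Of these 6 members, 4 had a control p300 interval within 1 kb, at 223, 359, 364 and 889 bp. Plec, which codes for the cytoskeletal linker plectin, had 5 members, all in intron 1 of its longest transcript, beside 7 control intervals. Rbfox2, a regulator of alternative splicing in muscle, had 5 members in its introns, of which 3 had a control p300 interval within 300 bp, at 212, 218 and 273 bp. Heatr7b1 had 6 members and no control myogenin interval, and 4 of these members were also counted for the overlapping gene Hjurp, a centromere histone chaperone.

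Cap2, an actin regulator, Dlgap4, a synaptic scaffold gene, and Fhod3, a formin of the sarcomere, had 4 members each. The annotated span of Gm20388 is 4435 kb and that of Fgfr2 3009 kb in this annotation, each covering other genes, so their counts of 8 and 6 members belong to wide regions. The members counted for Fgfr2 were also in Tacc2, Lhpp or Ctbp2.

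Lists of genes of muscle function were examined for members, beside the 7.21% of all protein-coding genes that had one. Of 42 sarcomere genes, 9 had a member (21.4%, 11.7 to 35.9). Myom3, a component of the M-band, had 3 members in introns 5, 7 and 9, which were its only myogenin intervals, and the nearest control myogenin interval of the 3 was at least 80762 bp away. Myl1, a fast myosin light chain gene, and Tmod1, which caps the pointed ends of thin filaments, had 2 each. Actc1, Myh2, Myh3, Myh8, Tnnt3 and Ttn had 1 each, and for Myh8 and Tnnt3, the perinatal myosin heavy chain gene and the fast troponin T gene, this member was the only myogenin interval of either list. The member counted for Myh8 was intergenic, and its nearest TSS was that of Myh13, at -7764 bp.

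Of 12 neuromuscular synapse genes, 4 had a member (33.3%, 13.8 to 60.9). Chrnd and Chrng, which code for the delta and gamma subunits of the muscle acetylcholine receptor and lie side by side on chromosome 1, were counted for the same 2 members in the interval between them, at -1791 and -1136 bp from the TSS of Chrng. Control myogenin was 1371 and 717 bp away from these, so they stood beside an interval found without bexarotene. Colq, which codes for the collagen tail of acetylcholinesterase, had 1 member, with 3 E-boxes within 50 bp. Chrnb1 had 1, which lay in intron 1 of the neighbouring gene Fgf11. The count of this list was 1 of 12 by gene body alone, 2 by the nearest TSS and 6 within 50 kb.

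Of 28 fusion and adhesion genes, 10 had a member (35.7%, 20.7 to 54.2), among them Kirrel3, an immunoglobulin superfamily adhesion gene, with 3, and Bin1, Dock1 and Dysf with 1 each. For Dock1 and Dysf, the genes of a Rac activator in fusion and of the membrane repair protein dysferlin, there was no other myogenin interval. Of 20 Notch pathway genes, 6 had a member (95% interval 14.5% to 51.9%), against 4 by gene body alone and 9 within 50 kb. Notch2 had 3 members in intron 1, 1161 to 2830 bp from a control myogenin interval, the coactivator gene Maml3 had 3, and Hey1 and Jag2 had 1 each. The member counted for Jag2 lay in intron 4 of the neighbouring gene Nudt14. Of 25 myogenic transcription factor genes, 2 had a member (8.0%, near the 7.21% of all genes), namely Mef2d with 3 and Tcf4 with 1. For this list the count was 7 by the nearest TSS and 6 within 50 kb. The 3 members of Mef2d were 4840, 685 and 236 bp from control myogenin intervals.

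The remaining lists had members at 5 of 23 genes of excitation-contraction coupling (Camk2g, Casq2, Jph2, Ryr3 and Trdn), 4 of 18 of the dystrophin complex (among them Large with 2, Sntb1 and Sspn), 5 of 21 of the insulin-like growth factor pathway (among them Akt1, Igf1, Igf2r and Igfbp7) and 4 of 29 nuclear receptor genes (Nr1d1, Nr1h4, Rara and Vdr). The member counted for Nr1h4 was intergenic, and its nearest TSS was that of Gas2l3, at -6547 bp. A list of neuronal synapse genes, included for a tissue that is not studied here, had members at 6 of 28 genes (21.4%, 10.2 to 39.5), the same share as the sarcomere list, with Dlgap1 at 2. Its median gene length was 86.4 kb, against 24.0 kb in the sarcomere list and 14.5 kb in the neuromuscular synapse list. By gene body alone the sarcomere list had 5 genes with a member and the fusion and adhesion list 8, and within 50 kb they had 14 and 13, while over all genes the counts were 941 and 3456 and by the nearest TSS 1625. The shares were not adjusted for length, and nothing particular to a list can be read from them.

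**Figure D5:**
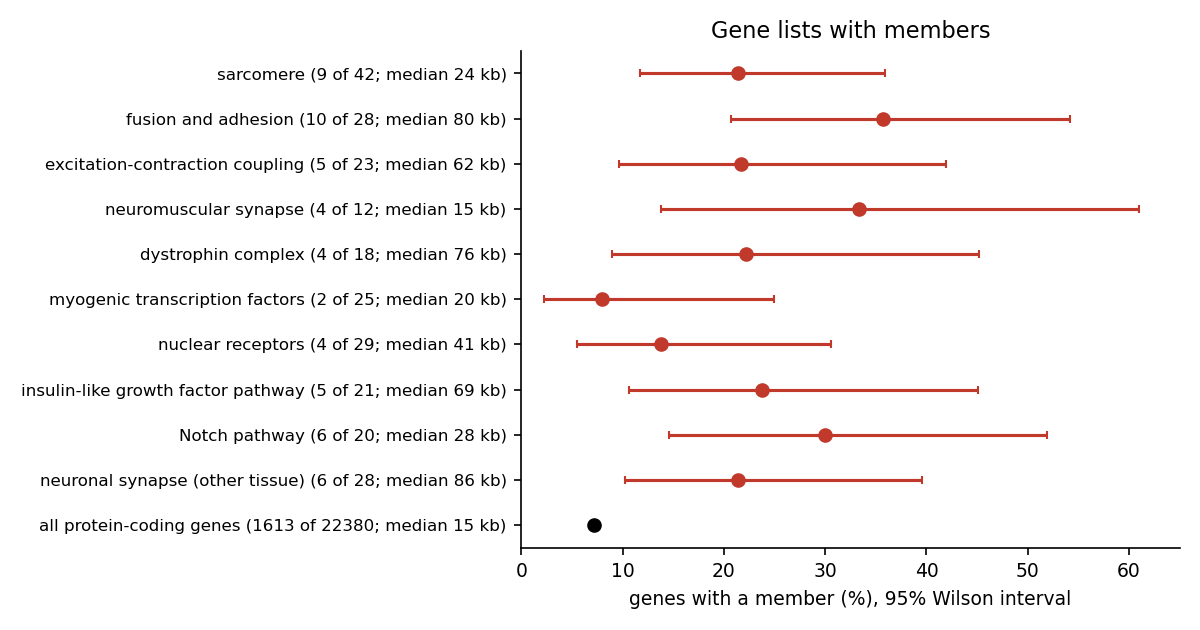
Percentage of the genes of each list with a member in the gene body or within 10 kb, with 95% Wilson intervals, and beside each list the count and the median gene length. The black point is the share over all protein-coding genes (7.21%), and the sarcomere and neuronal synapse lists stand at the same 21.4%.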

How the data were processed

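ChIP-seq for myogenin and for p300 was available from C2C12 cells kept for 24 h in differentiation medium with no agent or with bexarotene at 50 nM, and each factor had 1 library per condition. According to the methods of the study, the authors used BWA-MEM for the myogenin libraries and Bowtie for p300, both against mm9, followed by duplicate removal (Picard) and peak calling by library in HOMER findPeaks (factor style with regions). The deposited files state only where each peak begins and ends, as positions that count from 0, and hold no tag count or score, so depth, fold over input and the peak threshold could not be varied. Positions are printed counted from 1. Input and H3K27me3 libraries were not used here.

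The members and gene lists were chosen with earlier results of these data known. Overlap meant at least 1 bp. TSS distances ran from the interval centre to 51733 starts of protein-coding transcripts in GENCODE vM1. Sequences came from the mm9 genome. Both strands were searched for E-boxes up to 50 bp from the centre and for other motifs up to 100 bp, each position counting once, and flanking windows lay 2 kb to either side and overlapped none of the 4 lists. A gene had a member when an interval centre lay in its body or within 10 kb. The named members were the 6 longest, the 8 with most E-boxes within 100 bp and any with a DR1. The named genes were the 10 with most members and, per list, up to 4 with most members, ties in alphabetical order, and other genes of a list were named after their counts were seen. Some of these items are not reported here. All 246 listed symbols matched the annotation. Wilson and Newcombe 95% intervals cover counting error only. The functions were tested on simulated data (Python 3.11.15, numpy 2.4.6, pandas 2.3.3). The share of members in repeats was planned, and was not computed because the genome used holds no lower-case repeat masking.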

Additional observations from a re-analysis of the deposited data

How the results depend on the processing

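Of 84 values recomputed under alternatives, 57 stayed within the interval of the value reported (for counts, within 1.5 times), 26 left it and 1 changed sign. The number of members was 1571 to 2488 under 7 alternatives and 544 with only intervals longer than the smallest. The E-box share of members was 63.0% over 5 kb from every TSS, 60.9% with no p300 interval within 500 bp, 71.1% in longer intervals, 73.2% over the whole interval, 74.5% within 100 bp, 38.0% within 25 bp, 45.3% with CAGCTG alone and 78.1% with any CANNTG. Its difference to the p300 class was 10.1 points with no p300 within 500 bp, 10.4 in longer intervals, 1.19 (-2.10 to 4.56) over the whole interval, 0.161 with CAGCTG alone and -0.778 (-3.78 to 2.33) with any CANNTG. Its interval included 0 under the last 3 of these, within 100 bp (2.85, -0.430 to 6.21) and with only the bexarotene p300 list (3.31, -1.11 to 7.77). To the shared class it was -13.7 with no control interval within 500 bp, -6.17 in longer intervals and -11.6 with any CANNTG, and to the control-only class 32.6 in longer intervals. The share within 10 kb of another myogenin region was 37.5% with no control interval within 500 bp, 36.7% over 5 kb from every TSS and 38.3% with no p300 within 500 bp. The share inside a gene was 51.1% over 5 kb from every TSS. The share within 1 kb of p300 was 5.76% with no p300 within 500 bp, 30.3% with only the bexarotene p300 list and 12.1% in longer intervals. Genes with a member numbered 941 by gene body alone and 3456 within 50 kb. No paired analysis was possible because each condition has 1 library. With 1 library, a difference between lists can come from depth or threshold as well as from the agent, and these cannot be told apart here.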

Other observations

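Members were spread over all autosomes and chromosome X. They numbered 0.772 per Mb over the genome, with the highest densities on chromosome 15 (1.55 per Mb), chromosome 11 (1.40 per Mb) and chromosome 10 (1.28 per Mb) and the lowest on chromosome X (0.144 per Mb). The control myogenin list was also densest on these 3 chromosomes, at 4.97, 3.87 and 4.39 intervals per Mb, and lowest on chromosome X, at 0.312. As a share of the bexarotene list of each chromosome, members ranged from 23.7% on chromosome 9 to 35.3% on chromosome X, around 30.7% overall. The densest 100 kb held 7 members, with centres from 90120377 to 90198363 on chromosome 1 around Heatr7b1 and Hjurp. The copy number of these chromosomes in C2C12 cells was not measured.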
